A study of Mus musculus with 12 samples.

Results

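Chromatin accessibility was examined at 8 genes of eosinophils, basophils and mast cells (Epx, Prg2, Il5ra, Mcpt8, Cpa3, Ms4a2, Fcer1a and Hdc) in bone marrow of NZO/HILtJ mice, an inbred strain known for obesity and diabetes. A peak was taken when its centre lay in one of these genes or within 10 kb of its ends, and a peak near more than 1 of them went to the nearest. This rule found 24 of the 75281 consensus peaks of the series, namely 8 at Hdc, 4 at Il5ra, 3 each at Prg2 and Ms4a2, 2 each at Epx and Fcer1a, and 1 each at Mcpt8 and Cpa3. The assay was ATAC-seq, in which a transposase inserts into open chromatin, so that more reads over a region mean a more open region in the cells sampled. Mice aged 3 months (6 libraries) and 18 months (6 libraries) were compared, with 3 females and 3 males at each age, named here by tissue code and mouse number: 18-month females BM-35, BM-36 and BM-42, 18-month males BM-38, BM-39 and BM-40, 3-month females BM-243, BM-244 and BM-245, and 3-month males BM-251, BM-252 and BM-253. All groups share strain and tissue, and no treatment or engineered allele is named. Each library is taken as 1 mouse from its number in the labels, and the p-values measure the spread between these libraries.

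Total counts in peaks ranged from 7668099 to 12756647 per library, and levels are given as CPM, the usual scaling of a count by the library's total, here its total in peaks. A count of 3, taken as the floor, came to between 0.235 and 0.391 CPM, and the lowest count in any of the 24 peaks was 9. The 24 peaks together held between 0.0155% and 0.0240% of a library's counts. Sequencing runs were split by age: the 18-month females were in run 14, the 18-month males in run 15 and the 3-month mice in runs 28, 29, 30 and 31, and 0 of the 6 runs held both ages. Age and run therefore cannot be told apart, and at 18 months neither can sex and run. The labels name bone marrow, whereas their protocol text describes a sort for CD3e and CD8 positive T cells. Of 16 T cell markers, 4 had no assigned peak (Cd3e, Cd8a, Cd8b1 and Bcl11b). Per kb of peak, the median gene was at 11.1 CPM among 18 erythroid markers, 13.4 CPM among 15 neutrophil and granulocyte markers and 10.5 CPM among the 12 T cell markers with a peak. All gene lists used below had medians between 9.62 and 13.4 CPM per kb, so this measure cannot tell which cells were used. The libraries are called bone marrow here, as in the sample labels. In such bulk libraries, fewer cells of a type and less open chromatin per cell cannot be told apart.

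Eosinophils, basophils and mast cells are granulocyte lineages of allergy and of defence against parasites, and in the marrow their progenitors are rare beside those of neutrophils and red cells. Eosinophils mature under interleukin 5 and store basic toxins in their granules. Basophils and mast cells carry the high-affinity receptor for immunoglobulin E, and its crosslinking by antigen releases histamine and proteases. Histamine is made from histidine by the enzyme that Hdc encodes, which basophils and mast cells express most, but which immature neutrophil-lineage cells of the marrow also express.

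For 4 of the 8 genes a peak overlapped the promoter, and these promoters are shown because the values below refer to them. Each is the 300-base stretch around the listed transcription start from RefSeq (GRCm38.p6), printed 5′ to 3′ on the gene's own strand, which is the minus strand for all of them. Capitals mark matches, on either strand, to short motifs of factors of these lineages: TGATAA or AGATAA for GATA factors, TTGCAA for C/EBP, AGGAAG for ETS factors, TGTGGT for RUNX, TGANTCA for AP-1 and CAGCTG as a form of the E-box. No matches overlap one another in these 4 windows.
Hdc (chr2:126618629-126618928): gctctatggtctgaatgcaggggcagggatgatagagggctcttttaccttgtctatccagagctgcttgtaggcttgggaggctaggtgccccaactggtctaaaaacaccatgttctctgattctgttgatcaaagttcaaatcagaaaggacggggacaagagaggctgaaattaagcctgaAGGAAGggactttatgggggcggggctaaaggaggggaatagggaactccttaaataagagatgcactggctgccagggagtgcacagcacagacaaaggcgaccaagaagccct
Il5ra (chr6:106748988-106749287): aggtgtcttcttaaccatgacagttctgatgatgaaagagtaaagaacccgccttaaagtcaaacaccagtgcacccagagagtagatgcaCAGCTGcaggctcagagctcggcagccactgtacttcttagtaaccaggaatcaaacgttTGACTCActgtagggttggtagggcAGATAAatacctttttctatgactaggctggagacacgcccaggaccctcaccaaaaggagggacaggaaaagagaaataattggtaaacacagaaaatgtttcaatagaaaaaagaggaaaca
Mcpt8 (chr14:56085148-56085447): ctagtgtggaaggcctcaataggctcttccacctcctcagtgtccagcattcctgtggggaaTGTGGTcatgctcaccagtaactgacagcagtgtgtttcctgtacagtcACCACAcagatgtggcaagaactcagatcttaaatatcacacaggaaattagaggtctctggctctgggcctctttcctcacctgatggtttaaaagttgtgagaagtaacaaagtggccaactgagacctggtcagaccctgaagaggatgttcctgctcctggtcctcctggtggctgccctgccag
Fcer1a (chr1:173227180-173227479): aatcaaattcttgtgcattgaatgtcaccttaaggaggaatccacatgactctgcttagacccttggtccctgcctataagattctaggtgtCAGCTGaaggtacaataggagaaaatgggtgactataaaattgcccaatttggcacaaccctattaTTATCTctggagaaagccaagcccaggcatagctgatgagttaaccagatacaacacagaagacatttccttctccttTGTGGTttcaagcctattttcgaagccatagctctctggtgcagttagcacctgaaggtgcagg
The Hdc window held 1 match, an ETS motif with its first base 65 bases before the start. Il5ra held a GATA match at -74, an AP-1 match at -99 and an E-box match at -159, where positions count the first base back from the start. Mcpt8 held RUNX matches at -188 and -139. Fcer1a held a GATA match at -92, a RUNX match at -14 and an E-box match at -158. Over all 32851 promoters of this length, 18.6% held the GATA motif, 6.23% C/EBP, 35.4% ETS, 16.8% RUNX, 7.81% AP-1 and 16.3% this E-box. A match describes letters only and says nothing about binding. Hdc peak 1 and Il5ra peak 2 covered all 300 bases of their windows, whereas the Mcpt8 peak covered 212 and Fcer1a peak 1 covered 171. Promoter windows of Epx, Cpa3 and Ms4a2 had no peak over them, and the table lists none for Prg2.

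Hdc stood apart from the other 7 genes. Its 8 peaks held between 56.5% and 71.2% of the counts in the 24 peaks, and its summed level was 1.45-fold higher at 18 than at 3 months (95% interval 1.31 to 1.60). Among the other genes only Il5ra, which encodes the alpha chain of the interleukin 5 receptor, passed the test, at 1.23-fold higher (1.04 to 1.45) and close to the threshold. In numbers, 2 of 8 genes rose and 0 fell by edgeR's quasi-likelihood test with Benjamini-Hochberg adjustment over 15312 genes, at an adjusted p under 0.05, where 18.2% of all tested genes rose and 18.7% fell. With DESeq2, too, 2 of the 8 were higher and 0 lower, where 18.5% of all tested genes were higher and 19.2% lower. At an unadjusted p under 0.05, 2 of the 8 were higher and 0 lower by either tool. By either tool 45.7% of all tested genes had such a p in either direction. The median log2 fold change of the 8 genes was 0.23, against 0.01 over all tested genes. In the other settings with all libraries, Epx had 0.039 to 0.21, Mcpt8 0.049 to 0.29 and Ms4a2 0.10 to 0.17. Cpa3 had 0.22 to 0.44, Il5ra 0.23 to 0.30 and Hdc 0.52 to 0.59. Prg2 had -0.16 to 0.021 and Fcer1a -0.20 to 0.0083. The median of the 8 was not taken in those settings. The plot of summed levels per gene shows all 12 libraries.

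**Figure D1:**
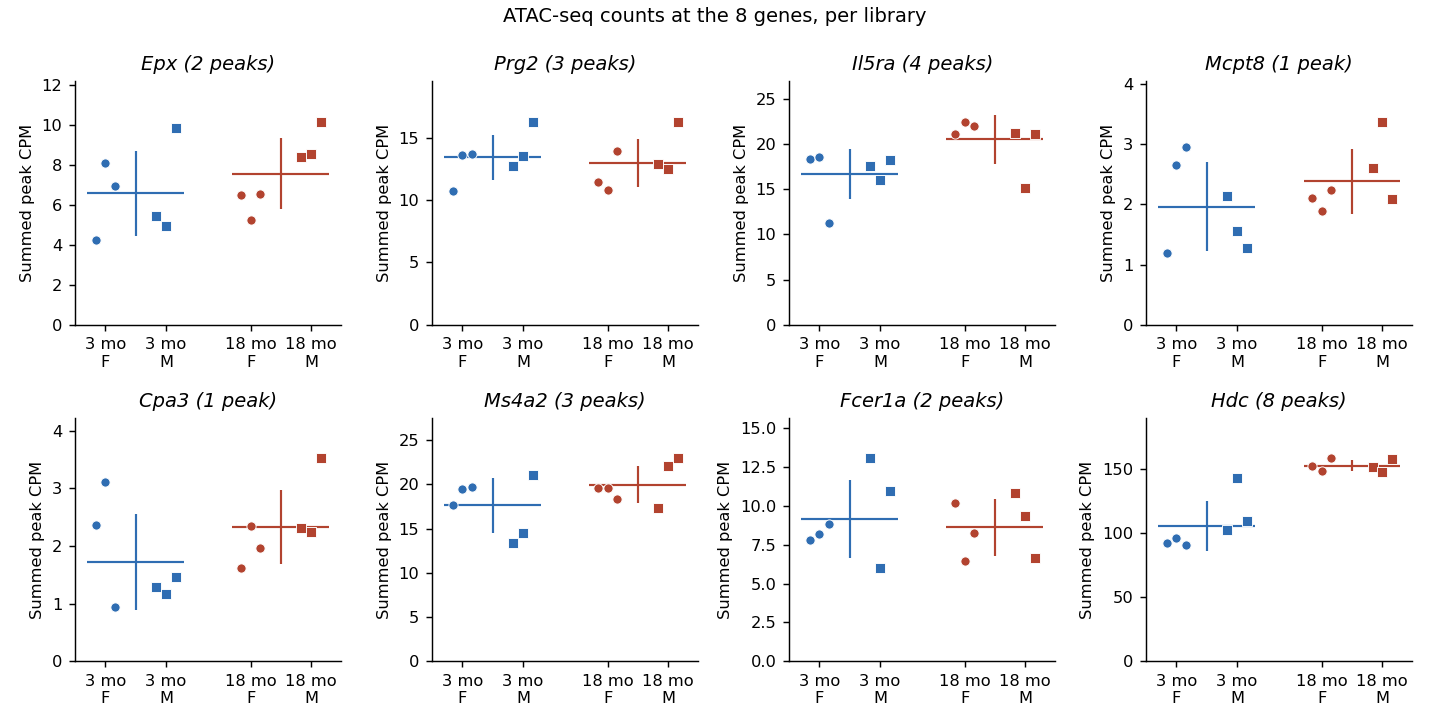
Summed CPM over the peaks of each gene (y axis, linear from 0) for every library, by age and sex (x axis). Circles are females and squares males, horizontal lines are means of the 6 libraries of an age and vertical bars are ± 1 SD. Hdc is the only gene of the 8 whose ages do not overlap, with 90.8 to 143 CPM at 3 months and 148 to 158 CPM at 18 months.

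At the level of single peaks, 8 of 24 were higher at 18 months and 0 were lower (edgeR, adjusted over 75164 tested peaks), where 9.43% of all tested peaks were higher and 11.6% were lower. Of the 8 higher peaks, 7 were at Hdc and 1 at Il5ra, and 1 of the 16 peaks outside Hdc was called. All 24 peaks passed the filter on low counts (CPM above 1 in at least 2 libraries). By DESeq2, 7 peaks were higher and 0 lower, where 8.53% and 11.9% of all tested peaks were. At an unadjusted p under 0.05, 10 of the 24 peaks were found by either tool, 9 higher and 1 lower (Prg2 peak 2), where 33.4% of all tested peaks were by edgeR and 32.3% by DESeq2, in either direction. The median log2 fold change was 0.48 over the Hdc peaks, 0.07 over the 16 others and 0.02 over all tested peaks. Read by abundance, 15 of the 16 peaks outside Hdc lay in the lower 2 quartiles of mean CPM, in which 6.90% and 9.62% of all peaks were higher. The median log2 fold change of all peaks in these 2 quartiles was 0.09 and 0.06, near the 0.07 of the 16. Of the 8 Hdc peaks, 5 lay in the top quartile, where 9.18% of all peaks were higher and 27.8% lower, with a median log2 fold change of -0.11. Standard errors of the log2 fold change ranged from 0.12 to 0.28 over the 24 peaks.

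**Figure D2:**
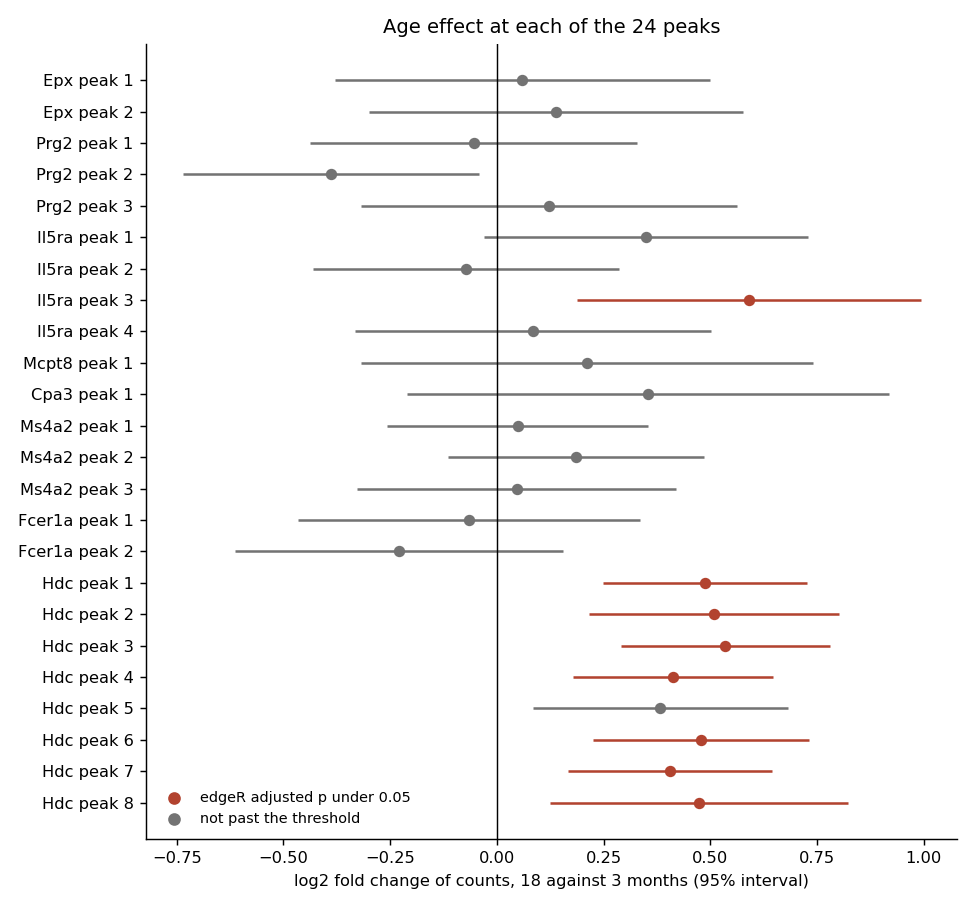
Log2 fold change of counts between 18 and 3 months (x axis) for each of the 24 peaks (y axis), with 95% intervals from the edgeR fit with sex as covariate. Red marks an adjusted p under 0.05, and the 8 Hdc peaks all lie between 0.38 and 0.54, with 7 past the threshold, while 15 of the 16 others are not.

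Among the eosinophil genes, Epx encodes eosinophil peroxidase, a granule enzyme. Its 2 peaks (chr11:87882892-87883316, 7568 bases upstream of the start, and chr11:87865287-87865731, inside the gene and 10027 bases downstream) summed to a lowest, median and highest level of 5.25, 7.47 and 10.2 CPM at 18 months. At 3 months the same values were 4.25, 6.20 and 9.83 CPM, so the ages overlapped over most of their range. For the sum, the log2 fold change was 0.17 (SE 0.18, 95% interval -0.21 to 0.55, edgeR adjusted p = 0.496), and leaving out 1 library gave 0.061 (3-month male BM-253) to 0.29 (3-month male BM-252). Over 9 other settings it was 0.039 to 0.21, and it was called in 0 of them. Epx peak 2 was the higher of the pair, at 3.98 ± 0.69 CPM (SD, n = 6) at 18 months and 3.42 ± 1.34 CPM (SD, n = 6) at 3 months, with a log2 fold change of 0.14 (SE 0.22). The upstream Epx peak lay nearer to Olfr462, an olfactory receptor gene, than to Epx.

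Prg2 encodes major basic protein, the main component of the eosinophil granule core. Its 3 peaks summed to 10.8, 12.7 and 16.3 CPM (lowest, median, highest) at 18 months and to 10.8, 13.6 and 16.3 CPM at 3 months, an almost complete overlap. The log2 fold change was -0.06 (SE 0.11, 95% interval -0.30 to 0.17, edgeR adjusted p = 0.707). Only peak 1 (chr2:84975273-84975745) had Prg2 as its nearest gene. Peak 3 lay inside the neighbouring paralogue Prg3, and peak 2 (chr2:84987936-84988363) lay in the non-coding gene Gm39868 with Prg3 as the nearest coding gene. Peak 2 was the highest of the 3, at 4.70 ± 0.88 CPM (SD, n = 6) at 18 months and 5.87 ± 0.97 CPM (SD, n = 6) at 3 months. Its log2 fold change was -0.39 (SE 0.17, edgeR adjusted p = 0.103), the lowest value among the 24 peaks.

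Il5ra encodes the receptor chain that gives eosinophil and basophil progenitors their response to interleukin 5. Its 4 peaks summed to 15.2, 21.2 and 22.5 CPM (lowest, median, highest) at 18 months and to 11.3, 17.9 and 18.6 CPM at 3 months. Of the 18-month libraries, 5 lay above all 3-month libraries, and male BM-39 lay within their range. The log2 fold change was 0.29 (SE 0.12, 95% interval 0.06 to 0.53, edgeR adjusted p = 0.0479). This call was lost in 8 of the 12 fits that left out 1 library, namely each 18-month female, 18-month males BM-38 and BM-40, 3-month females BM-244 and BM-245 and 3-month male BM-251, with adjusted p between 0.0531 and 0.145. Over the 12 fits the log2 fold change was 0.19 to 0.36. It was also lost with offsets smoothed on peak abundance (adjusted p = 0.135), with offsets smoothed on peak width (0.0652) and without the count filter (0.0527).

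Of the 4 Il5ra peaks, 1 was called. Peak 3 (chr6:106738138-106738726, inside the gene and 10605 bases downstream of the start) had 3.67, 4.65 and 5.88 CPM (lowest, median, highest) at 18 months and 2.03, 2.94 and 4.21 CPM at 3 months. Its log2 fold change was 0.59 (SE 0.20, 95% interval 0.19 to 0.99, edgeR adjusted p = 0.0289), the highest value of the 24 peaks. It lost its call in 6 of the 12 fits without 1 library (without 18-month female BM-36, 18-month males BM-39 and BM-40, 3-month female BM-245, or 3-month males BM-251 and BM-252), with adjusted p from 0.0533 to 0.0860. It was lost as well with offsets smoothed on abundance (adjusted p = 0.0586) or width (0.0577). The promoter peak, Il5ra peak 2 (chr6:106748886-106749373), whose window is printed above, gave 5.22 ± 1.00 CPM (SD, n = 6) at 18 months and 5.22 ± 1.04 CPM (SD, n = 6) at 3 months, with a log2 fold change of -0.07 (SE 0.18, edgeR adjusted p = 0.817). Peak 1 (chr6:106750160-106750692), upstream of the promoter and the highest of the 4 on average, had a log2 fold change of 0.35 (SE 0.19, edgeR adjusted p = 0.190), and peak 4 one of 0.08 (SE 0.21). Whether peak 3 differed from the promoter peak was not tested.

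Mcpt8 encodes a serine protease of mouse basophil granules. Its single peak (chr14:56085180-56085391), over the promoter printed above, had the lowest mean CPM of the 24 after that of Cpa3. It had 1.88, 2.18 and 3.37 CPM (lowest, median, highest) at 18 months and 1.18, 1.84 and 2.95 CPM at 3 months, with the ages overlapping. The listed start lies inside the RefSeq gene, which spans chr14:56082163-56085499, so this peak is inside the annotated gene. At the gene level the log2 fold change was 0.28 (SE 0.26, 95% interval -0.26 to 0.82, edgeR adjusted p = 0.422). Single libraries moved this value: it was 0.14 without 18-month male BM-39, 0.16 without 3-month female BM-245 or 3-month male BM-252, and 0.45 without 3-month female BM-244. With offsets smoothed on abundance or width it was 0.095 and 0.049, and it was not called in any of these fits. In the fit of peaks, which has scaling factors of its own, the same counts gave 0.21 (SE 0.26).

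Fcer1a encodes the alpha chain of the high-affinity immunoglobulin E receptor, which binds the antibody. Its 2 peaks summed to 6.43, 8.78 and 10.8 CPM (lowest, median, highest) at 18 months and 6.01, 8.52 and 13.0 CPM at 3 months, and the 3-month libraries enclosed the range of the 18-month ones. For both together the log2 fold change was -0.08 (SE 0.17, 95% interval -0.42 to 0.27, edgeR adjusted p = 0.749). Fcer1a peak 1 (chr1:173226861-173227350), over the printed promoter, was at 4.23 ± 1.07 CPM (SD, n = 6) at 18 months and 4.24 ± 1.11 CPM (SD, n = 6) at 3 months. Fcer1a peak 2, the higher and the one with the smaller p, lay inside the olfactory receptor gene Olfr1404 and had a log2 fold change of -0.23 (SE 0.19, edgeR adjusted p = 0.424).

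Ms4a2 encodes the beta chain of the same receptor, which amplifies the receptor's signal. Its 3 peaks all lay downstream of the gene, with centres between 12110 and 17423 bases past the start, and peaks 2 and 3 were nearer to Ms4a6d. They summed to 17.4, 19.6 and 23.0 CPM (lowest, median, highest) at 18 months and 13.4, 18.6 and 21.1 CPM at 3 months. The 2 lowest libraries were 3-month males BM-251 and BM-253, while the other 3-month libraries lay within the 18-month range. The log2 fold change was 0.17 (SE 0.11, 95% interval -0.06 to 0.40, edgeR adjusted p = 0.248), and leaving out 1 library gave 0.098 (3-month male BM-251) to 0.24 (3-month male BM-252). Ms4a2 peak 2 (chr19:11606841-11607569), the highest of the 3, had a log2 fold change of 0.19 (SE 0.15, edgeR adjusted p = 0.406).

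Cpa3 encodes carboxypeptidase A3, a protease of mast cell granules that is also made by basophils. Its single peak (chr3:20243875-20244181), 1847 bases upstream of the start, gave the lowest level of the 8 genes per kb of peak, at 6.61 CPM per kb over the 12 libraries. It had 1.62, 2.28 and 3.52 CPM (lowest, median, highest) at 18 months and 0.947, 1.37 and 3.10 CPM at 3 months. Of the 3-month libraries, 4 lay below all 18-month ones, and females BM-243 and BM-245 lay within their range. With age its log2 fold change was 0.42 (SE 0.29, 95% interval -0.17 to 1.01, edgeR adjusted p = 0.267), so neither no change nor an increase of about 1 log2 unit lay outside the interval. It was 0.26 without 18-month male BM-40 and 0.67 without 3-month female BM-243, and 0.23 and 0.22 with offsets smoothed on abundance and width, none of them called.

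Hdc encodes histidine decarboxylase. Summed over its 8 peaks it had 148, 152 and 158 CPM (lowest, median, highest) at 18 months and 90.8, 99.2 and 143 CPM at 3 months. The ages did not overlap, as was so for 1 of the 8 genes and for 5.71% of all tested genes in the upward direction. The highest 3-month library, male BM-253, lay just below the lowest 18-month one, and the other 3-month libraries were at 110 CPM or below. The log2 fold change was 0.54 (SE 0.070, 95% interval 0.39 to 0.68, edgeR adjusted p = 3.07e-06). It stayed called in all 12 fits that left out 1 library, at 0.50 to 0.63, and in 9 of 9 other settings, at 0.52 to 0.59. Per kb of peak, Hdc had 15.3 CPM over the 12 libraries, against 6.61 to 10.2 CPM per kb for the other 7 genes.

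All 8 Hdc peaks pointed the same way, and 7 of them rose. The 2 most abundant were peak 4 (chr2:126601224-126603111, 16510 bases downstream of the listed start) and peak 3 (chr2:126605822-126606840, 12347 bases downstream). Peak 4 had 37.8, 43.1 and 46.9 CPM (lowest, median, highest) at 18 months and 24.3, 27.6 and 47.5 CPM at 3 months, where male BM-253 reached the highest value of all. Its log2 fold change was 0.41 (SE 0.12, edgeR adjusted p = 0.00818). Peak 3 had 26.5, 29.7 and 32.6 CPM at 18 months and 14.9, 18.2 and 29.3 CPM at 3 months, with male BM-253 alone of the younger libraries inside the older range. Its log2 fold change was 0.54 (SE 0.12, edgeR adjusted p = 0.00103), the smallest p of the 24 peaks. The promoter peak, Hdc peak 1 (chr2:126618379-126619533), whose window is printed above, had 18.9, 19.5 and 22.6 CPM at 18 months and 11.4, 12.9 and 17.7 CPM at 3 months, with no overlap. Its log2 fold change was 0.49 (SE 0.12, edgeR adjusted p = 0.00222).

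Of the remaining Hdc peaks, peaks 2, 6 and 7 rose by 0.51, 0.48 and 0.41 on the log2 scale (edgeR adjusted p = 0.00942, 0.00451 and 0.0109). Together with peak 1, peaks 2 and 7 make 3 of 24 peaks without overlap between the ages, where 3.74% of all tested peaks showed this in the upward direction. Peak 5 was not called, with a log2 fold change of 0.38 (SE 0.15, edgeR adjusted p = 0.0581). Peak 8 (chr2:126587249-126587727) lay 6171 bases past the end of Hdc, inside Slc27a2, a fatty acid transport gene. Its log2 fold change was 0.47 (SE 0.17, edgeR adjusted p = 0.0440). This call was lost in 8 of the 12 fits without 1 library: all but those without 18-month female BM-42, 18-month male BM-39 or 3-month males BM-252 and BM-253, with adjusted p from 0.0522 to 0.153. It was lost as well with DESeq2 (0.0550), with age alone in the model (0.0624) and with offsets smoothed on abundance (0.0854) or width (0.120). The listed start lies inside the RefSeq gene, which spans chr2:126593659-126624025, so peak 1 is inside the annotated gene.

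**Figure D3:**
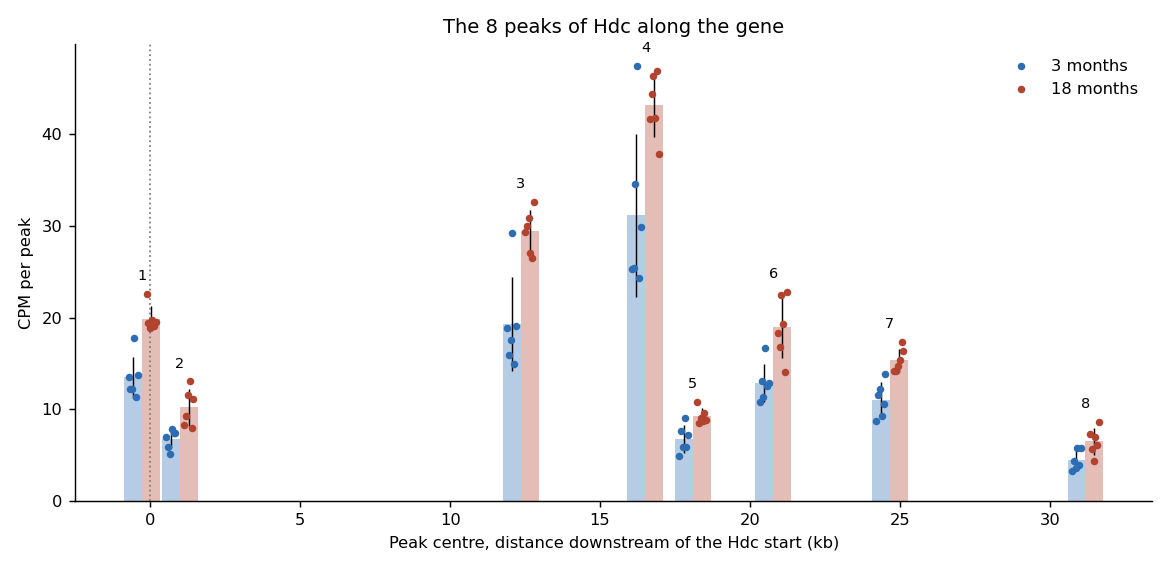
CPM of the 8 Hdc peaks (y axis, linear from 0), placed by the distance of the peak centre from the listed start in kb (x axis, dotted line at 0), with the bars of the 2 ages set side by side around that centre. Bars are means of 6 libraries, black lines ± 1 SD and points single libraries, and the mean is higher at 18 months at each of the 8 peaks, most of all in CPM at peaks 3 and 4.

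Within females, 2 of 8 genes rose and 0 fell with age (edgeR, with 12.3% of all tested genes higher and 13.5% lower). They were Hdc, at a log2 fold change of 0.70 (SE 0.086, adjusted p = 1.45e-06), and Il5ra, at 0.43 (SE 0.16, adjusted p = 0.0433). The female Il5ra call was lost in 7 of the 12 fits without 1 library (each 18-month female, 18-month males BM-38 and BM-40, 3-month female BM-244 and 3-month male BM-251), with edgeR adjusted p from 0.0513 to 0.310, and the log2 fold change was 0.23 without BM-244. It was lost too with offsets smoothed on abundance (adjusted p = 0.0713) or width (0.0591). Within males, 1 of 8 rose and 0 fell (10.7% of all tested genes higher, 12.6% lower), namely Hdc at 0.37 (SE 0.085, adjusted p = 0.00296). At an unadjusted p under 0.05, 2 genes were higher in females and 3 in males (Hdc, Cpa3 and Ms4a2), and 0 were lower in either sex, by edgeR and by DESeq2. By edgeR 36.8% of all tested genes in females and 36.6% in males had such a p in either direction, and by DESeq2 35.6% and 35.3%. Mean Hdc levels were 93.0 ± 2.66 CPM (SD, n = 3) in 3-month females, 118 ± 21.6 CPM (SD, n = 3) in 3-month males, 153 ± 5.06 CPM (SD, n = 3) in 18-month females and 152 ± 5.08 CPM (SD, n = 3) in 18-month males. At 3 months the males were at 102, 110 and 143 CPM, the highest being BM-253, and the females at 90.8 to 96.0 CPM; sex within an age was not tested. The male log2 fold change was called in all 12 fits that left out 1 library, from 0.28 without 3-month male BM-251 (edgeR adjusted p = 0.0363) and 0.30 without BM-252 to 0.53 without BM-253. The difference between the sexes in the age effect on Hdc was -0.33 (male minus female, SE 0.12), with an unadjusted p of 0.0106 and an edgeR adjusted p of 0.299. Leaving out 1 library gave -0.43 (3-month male BM-251) to -0.17 (3-month male BM-253), with adjusted p from 0.0557 to 0.655. For Cpa3 the same difference was 1.15 (SE 0.54), unadjusted p = 0.0413 and edgeR adjusted p = 0.377, with a log2 fold change of -0.12 in females and 1.03 in males. The female value changed sign with single libraries, from -0.47 without 3-month female BM-244 to 0.23 without 3-month female BM-243. The male value was 0.80 to 1.12 when 1 library was left out. The difference was not called in any of the 12 fits that left out 1 library. By edgeR 0 of 8 genes were called for this interaction, as were 0.0% of all tested genes. At an unadjusted p under 0.05 there were 2 of 8 genes by edgeR, where 12.5% of all tested genes were, and 1 by DESeq2 (11.4% of all). DESeq2 called 0 of the 8 for the interaction, where it called 0.00653% of all tested genes.

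Of the 24 peaks, 5 rose and 0 fell in females (edgeR, 5.7% and 6.2% of all tested peaks), all at Hdc (peaks 1, 3, 4, 5 and 6). Outside Hdc, Il5ra peak 1 was not called at 0.61 (edgeR adjusted p = 0.112), but was at 1.08 without 3-month female BM-245 (edgeR adjusted p = 0.0187). Peaks 1, 3 and 4 were called in all 12 fits without 1 library, and peak 6 in all but those without 18-month female BM-42 or 3-month female BM-245 (adjusted p = 0.0660 and 0.0820). The call of peak 5 (edgeR adjusted p = 0.0490) was lost in 9 of these 12 fits, all but those without 3-month female BM-243 or 3-month males BM-252 and BM-253, with adjusted p from 0.0531 to 0.249. It was lost in 5 of 7 other settings too, namely DESeq2, its size factors, both smoothed offsets and no filter. In males 0 rose and 0 fell (3.21% and 8.18% of all tested peaks). At an unadjusted p under 0.05, 9 peaks were higher and 0 lower in females and 4 were higher and 1 lower in males, by edgeR and equally by DESeq2, which called 4 higher in females (4.46% of all tested peaks) and 0 in males (2.4%). Over all tested peaks, 26% in females and 24.9% in males had such a p by edgeR in either direction, and 23.9% and 23.1% by DESeq2, so the 5 of 24 in males are near the background. Leaving out 3-month male BM-253 gave 4 higher peaks in males, all at Hdc (peaks 1, 2, 3 and 6), where 3.25% of all tested peaks were higher and 6.26% lower. At Hdc peak 4 the log2 fold change was 0.78 in females and 0.06 in males. The difference (male minus female), -0.72 (SE 0.20), had an unadjusted p of 0.000652 and an edgeR adjusted p of 0.236. Without 3-month male BM-252 it was -0.90 (edgeR adjusted p = 0.00450), the only call of an interaction among the 24 peaks in the settings tried. Leaving out that library raised interaction calls over all tested peaks from 4 to 1619, or 2.15% of them, and without BM-253 the value at peak 4 was -0.46 (edgeR adjusted p = 0.618). With all libraries 0 of the 24 peaks were called for the interaction by edgeR (0.00532% of all tested peaks) and 0 by DESeq2 (0.0186%). At an unadjusted p under 0.05 there were 3 by edgeR and 2 by DESeq2. Over all tested peaks 9.99% had such a p by edgeR and 8.59% by DESeq2, so these counts are near the background.

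Sex itself gave 0 calls among the 24 peaks (edgeR, 0.162% of all tested peaks) and 0 among the 8 genes (0.313% of all tested genes). DESeq2 also called 0 of each for sex, where it called 0.214% of all tested peaks and 0.856% of all tested genes. At an unadjusted p under 0.05 there was 1 peak, Epx peak 1, and 1 gene, Hdc, by edgeR and by DESeq2. Of all tested peaks and genes, 7.57% and 11.8% had such a p by edgeR, and 6.92% and 11.7% by DESeq2. The Hdc level was higher in males by 0.18 on the log2 scale (SE 0.070, edgeR adjusted p = 0.278). Within the pair of runs that held both sexes, Hdc was at 96.0 CPM in female BM-243 and 102 CPM in male BM-251 (run 29), and at 90.8 CPM in female BM-244 and 110 CPM in male BM-252 (run 31). The male was thus the higher in both of these runs, each a single pair of 3-month mice. At 18 months mean Hdc levels were 153 CPM in females and 152 CPM in males. The SD of the 6 libraries at 3 months was 19.6 CPM with male BM-253 at 143 CPM, and the 5 others spanned 90.8 to 110 CPM.

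Other genes of the same cells were taken from lists, without the 8 genes themselves, and summed over their peaks in the same way. Of 10 further eosinophil genes, 7 had a peak, of which 4 rose, 0 fell and 3 were not called, with a median log2 fold change of 0.42. Prg3 counts as without a peak because the peaks near it went to Prg2 by the rule. Siglecf, the eosinophil surface lectin, was at 17.5 ± 1.97 CPM (SD, n = 6) at 3 months and 23.7 ± 2.01 CPM (SD, n = 6) at 18 months and rose by 0.44 on the log2 scale (SE 0.089, edgeR adjusted p = 0.000502). Alox15, a lipoxygenase of eosinophils and macrophages, rose by 0.50 on the log2 scale and Adgre1, which encodes F4/80 of eosinophils and macrophages, by 0.49. The 2 genes of the list with the highest summed levels, named after their values were seen, pointed the other way without a call: the chemokine receptor gene Ccr3 at -0.09 (SE 0.071, edgeR adjusted p = 0.317) and the prostaglandin receptor gene Ptger3 at -0.12 (SE 0.067, edgeR adjusted p = 0.161). Without 3-month male BM-253 Ptger3 was called lower, at -0.17 (edgeR adjusted p = 0.0308). Of 11 basophil genes, 9 had a peak, of which 4 rose, 1 fell and 4 were not called (median 0.28). The gene that fell, also named after its value was seen, was the integrin gene Itga2b, shared with megakaryocytes, at -0.19 (edgeR adjusted p = 0.0465), and its call was lost in 7 of the 12 fits without 1 library (18-month females BM-35 and BM-36, 18-month male BM-38, each 3-month female and 3-month male BM-252), with both smoothed offsets, with age alone and with the 3 kb window. Cd200r3, an activating receptor of basophils and mast cells with 12 peaks, was at 74.3 ± 11.4 CPM (SD, n = 6) at 3 months and 109 ± 11.6 CPM (SD, n = 6) at 18 months and rose by 0.55 on the log2 scale (SE 0.076, edgeR adjusted p = 5.59e-06). The chemokine gene Ccl3 rose by 0.46 and the activation marker Cd69 by 0.40, neither of which is restricted to basophils.

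Of 15 mast cell genes outside the 8, only 7 had an assigned peak, and Mcpt1, Mcpt4, Cma1, Tpsab1, Tpsb2, Mrgprb1, Mrgprb2 and Gzmb had none, among them the chymases and tryptases of mature mast cells. Of the 7, 2 rose, 1 fell and 4 were not called (median 0.27). With offsets smoothed on abundance the medians were 0.11 for the mast cell list and 0.15 for the basophil list. Srgn, the granule proteoglycan serglycin of many blood cells, was at 198 ± 23.9 CPM (SD, n = 6) at 3 months and 242.6 ± 7.10 CPM (SD, n = 6) at 18 months and rose by 0.30 on the log2 scale. Fcer1g, the receptor gamma chain shared with other Fc receptors, rose by 0.36. Mcpt2, a mast cell protease of a family with close copies to which reads could be misassigned, fell by 0.47 on the log2 scale (SE 0.18, edgeR adjusted p = 0.0432). That call was lost in 8 of the 12 fits without 1 library (18-month females BM-35 and BM-42, 18-month males BM-38 and BM-39, 3-month females BM-243 and BM-245 and 3-month males BM-252 and BM-253), with adjusted p from 0.0521 to 0.138. Kit, the stem cell factor receptor of mast cells and progenitors, was not called, at 0.06 (SE 0.085).

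Of 17 cytokine and receptor genes of these lineages, 15 had a peak, of which 5 rose, 0 fell and 10 were not called (median 0.24). Il3, the growth factor of basophils and mast cells, rose by 0.63 (SE 0.17, edgeR adjusted p = 0.00558) from a low level of 4.07 ± 0.83 CPM (SD, n = 6). Csf2rb, the beta chain shared by the receptors of interleukin 3, interleukin 5 and GM-CSF, rose by 0.43. It has a near copy, Csf2rb2, so the split of reads between both is uncertain. Il18r1, a receptor chain for interleukin 18, rose by 0.45. All 11 further genes of Fc epsilon receptor signalling had a peak, of which 5 rose, 0 fell and 6 were not called (median 0.14). They include Fcer1g, the kinase gene Syk at 0.31 and the adaptor gene Gab2 at 0.23. Among 19 transcription factors of these lineages, 6 rose, 4 fell and 9 were not called (median -0.07). Gata1, which drives erythroid, eosinophil, basophil and mast cell programmes, fell by 0.89, its partner Zfpm1 by 0.58 and Tal1 by 0.49. They are named for the smallest p-values of the list, and the 6 factors that rose are not named. These shares stand beside 18.2% higher and 18.7% lower over all tested genes, and no set test was made.

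The 3-month male BM-253 stood apart in the summed levels of 4 of these lists. It was at 390 CPM for the basophil list (310 to 335 CPM in the other 3-month libraries, 385 to 431 CPM at 18 months) and at 341 CPM for the mast cell list (263 to 296 CPM and 331 to 357 CPM). For the cytokines and receptors it was at 452 CPM (369 to 406 CPM and 417 to 486 CPM), and for Fc epsilon receptor signalling at 1370.5 CPM, above all 18-month libraries (1172 to 1220 CPM and 1284 to 1356 CPM). In the eosinophil list it was within the range of the others, at 173 CPM. Without it, 4 genes rose and 1 fell in the basophil list, 2 rose and 0 fell in the mast cell list, 7 rose and 0 fell among the cytokines and receptors and 6 rose and 0 fell in Fc epsilon receptor signalling, where 20.1% of all tested genes rose and 19.8% fell.

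**Figure D4:**
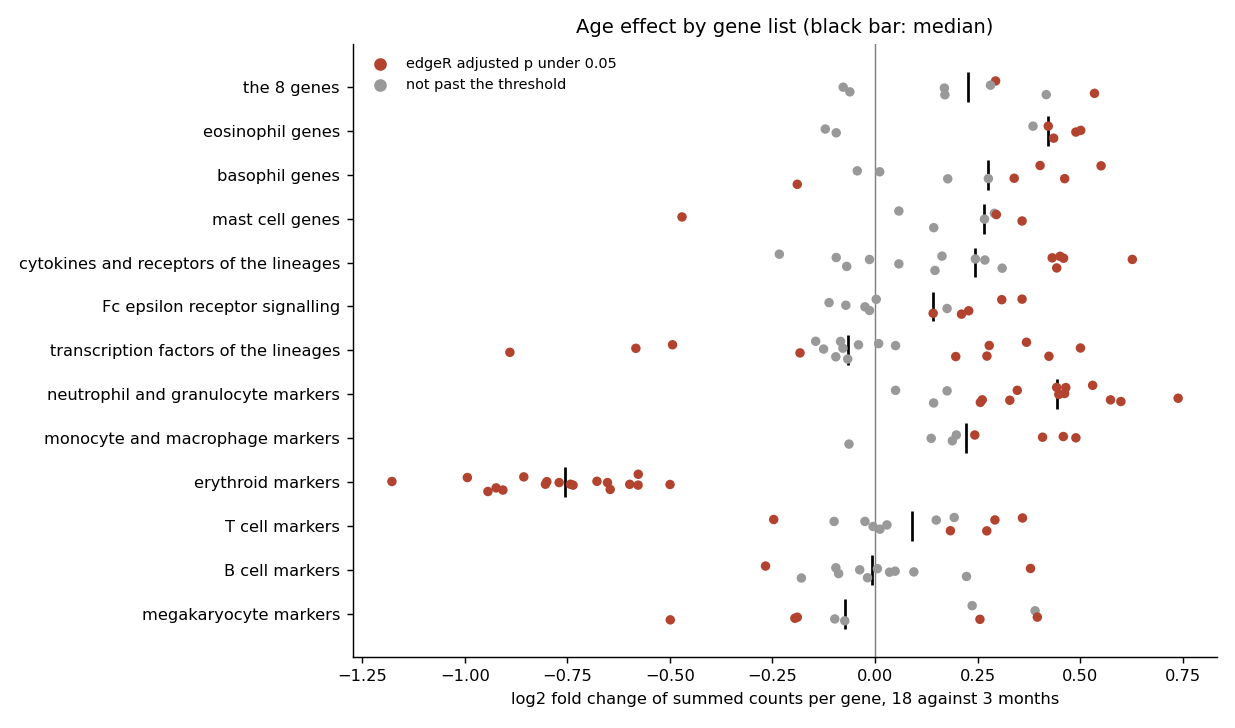
Log2 fold change between 18 and 3 months (x axis) of the summed counts of each gene (1 point per gene), by list (y axis), with black bars for list medians. Red marks an edgeR adjusted p under 0.05. The eosinophil list has a median of 0.42 and the neutrophil and granulocyte list one of 0.44, and the 18 erythroid markers all lie below 0.

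Markers of other marrow cells moved with age in the same libraries. Of 15 neutrophil and granulocyte markers with a peak, 12 rose, 0 fell and 3 were not called (median 0.44), and the smallest p-values were those of Ngp at 0.74, Ltf at 0.60 and S100a8 at 0.57. Their summed level was 1185 to 1414 CPM at 18 months. At 3 months it was 859 to 1007 CPM in 5 libraries and 1303 CPM in male BM-253, the library in which Hdc was also highest at that age. The part of these cells in the Hdc result was not tested. Without male BM-253 the Hdc log2 fold change was 0.63 (edgeR adjusted p = 9.97e-14). Of 8 monocyte and macrophage markers with a peak, 4 rose and 0 fell (235 to 253.5 CPM at 3 months, 259 to 290 CPM at 18 months), with the smallest p-values at Ly6c2 (0.46, not called with the 3 kb window), Adgre1 (0.49) and Cd68 (0.24), of which Adgre1 is also on the eosinophil list. The part of these cells in the eosinophil list was not tested. All 18 erythroid markers fell (median -0.76), from 1974 to 2394 CPM at 3 months to 1270 to 1433 CPM at 18 months, and the smallest p-values were those of Hbb-bs at -1.18, Slc4a1 at -0.99 and Hemgn at -0.74. Gata1, Zfpm1 and Tal1 are also active in erythroid cells, and the part of those cells in their fall was not tested.

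**Figure D5:**
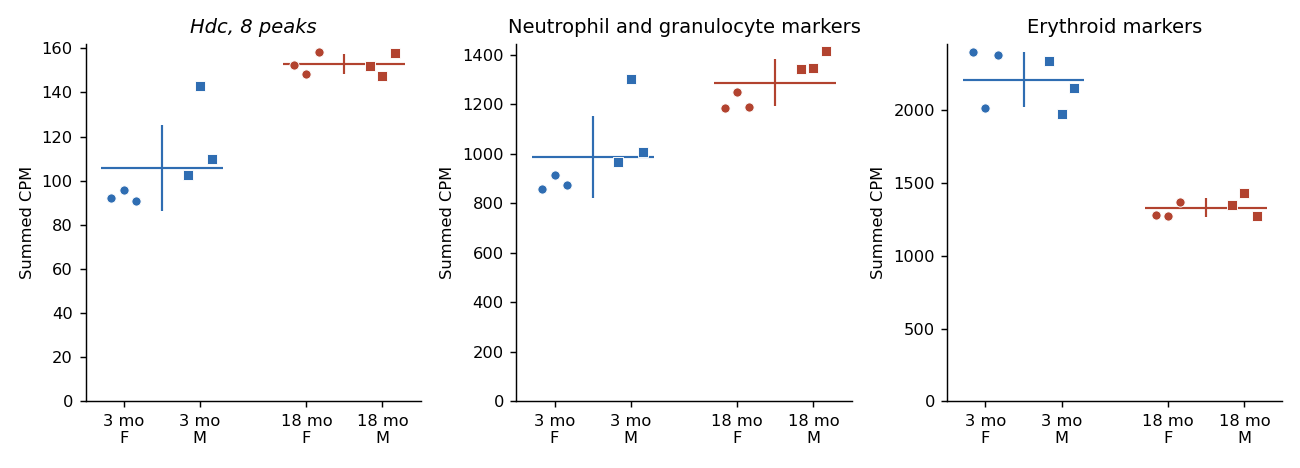
Summed CPM (y axes, linear from 0) of the Hdc peaks, of 15 neutrophil and granulocyte markers and of 18 erythroid markers in each library, by age and sex (x axis). Circles are females, squares males, horizontal lines means and vertical bars ± 1 SD of 6 libraries. The 3-month male at 143 CPM for Hdc is the one at 1303 CPM for the neutrophil markers, and both values lie above those of the other 3-month libraries.

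Lymphoid and megakaryocyte markers were called in both directions. Of 12 T cell markers with a peak, 4 rose, 1 fell and 7 were not called. The T cell receptor complex gene Cd3d rose by 0.36 and Cd5 by 0.29 on the log2 scale, and the kinase gene Lck fell by 0.25. Of 12 B cell markers, 1 rose, Ms4a1 (the gene of CD20) by 0.38, 1 fell, Vpreb3 by 0.27, and 10 were not called. Of 9 megakaryocyte markers 2 rose, 3 fell and 4 were not called, and the platelet genes Gp9 and Vwf fell by 0.50 and 0.20 while the integrin gene Itgb3 rose by 0.26. Without 3-month female BM-244, 4 megakaryocyte markers rose and 2 fell, where 16.7% of all tested genes rose and 17.5% fell. Without 18-month male BM-38 1 rose and 2 fell (16.1% and 17.5% of all), as with abundance offsets (17.7% and 17.3%).

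The genes whose levels over the 12 libraries were most like each of the 8 were found by Pearson's r of log2 CPM, among genes at or above the median abundance. For Hdc they were Plaur (r = 0.99), the urokinase receptor gene of myeloid cells, and Chd7 (r = 0.99), a chromatin remodeller gene. After removal of the 4 group means these values were 0.93 and 0.90. Plaur and Chd7 were themselves higher at 18 months, by 0.50 and 0.46 on the log2 scale. For the 7 other genes the closest values ran from 0.81 to 0.92, with Krtcap2 (0.92) for Il5ra, Efcab12 (0.90) for Epx, Ap5z1 (0.87) for Ms4a2, Tkt (0.84) for Prg2, Ranbp3 (0.84) for Fcer1a, Flywch1 (0.84) for Mcpt8 and Znrd2 (0.81) for Cpa3. Second were Lbh (0.87), P4ha2 (0.88), Rilpl1 (0.86), Csdc2 (0.84), Vwa8 (0.82), Fam83f (0.83) and Micall1 (0.78), in the same order. These values are the highest among all genes searched over 12 libraries that share depth and run, and they describe likeness only. Between the 8 genes themselves, the 28 pairs had r from -0.29 to 0.74 with a median of 0.19. After removal of the group means they had r from -0.76 to 0.86 with a median of -0.0036.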

How the data were processed

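Bone marrow ATAC-seq libraries of 12 NZO/HILtJ mice were analysed, in the 4 groups of age and sex that the labels give. The authors deposited read counts for 75281 consensus peaks, and 0 columns belonged to no labelled sample. Per the submitters' processing notes, Trimmomatic, BWA, MACS2, DiffBind, edgeR and mm10 were used; the removal of duplicates and the shift of read ends are not given in the sources used here. Any duplicates kept would hide part of the counting error, and the smallest value is 1, which compresses folds of the lowest peaks. The floor covers error from counting alone.

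The 8 genes and all lists were chosen with earlier results of these data known. Gene positions came from RefSeq (GRCm38.p6), where mm10 is the same assembly. Every other peak went to the coding gene that holds its centre or has the nearest end within 10 kb, and counts were summed per gene. Peaks are numbered 5′ to 3′ on the gene's strand, for Prg2 by coordinate. Features that passed 1 CPM in 2 or more libraries entered the test, made with edgeR 4.0.16 in R 4.3.3 (TMM factors, quasi-likelihood F test, age plus sex; a mean per group for effects within a sex and the interaction), separately for peaks and genes. Adjusted p-values are Benjamini-Hochberg over all tested features, with 0.05 as the threshold. SEs were derived from the F statistic. The scripts were tested on simulated data. Likeness used log2 CPM with a prior count of 2. Replicate pairs differed beyond counting error (chi-square per degree of freedom 2.17 to 6.08), and 0 pairs were identical.

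Named were all 8 genes, each with its highest peak, its peak of smallest p and every called peak; in each list the 3 called genes of smallest p; and the 2 genes most like each. Kit, Csf2rb2, Ccr3, Ptger3, Itga2b, other peaks of Il5ra, Hdc, Fcer1a and Prg2 and the genes without a peak were named beyond this rule. Alternatives were DESeq2 1.42.0, other scalings (limma 3.58.1 for smoothed offsets), no filter, age alone, a 3 kb window, strict nearest-gene assignment, one sex alone and leaving out each library.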

Additional observations from a re-analysis of the deposited data

Results flagged for a closer look

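Among 64 sets of 6 libraries (8 gene sums and 24 peaks at each age), 10 held a library whose distance from the nearest other one was beyond Dixon's 95% limit. Chance flags about 1 in 20 such sets, and the sets share libraries. Of the 10, 3 concern 3-month male BM-253 at Hdc: the gene sum was 143 CPM against 90.8 to 110 CPM in the other 3-month libraries, peak 1 was 17.7 against 11.4 to 13.7 CPM, and peak 3 was 29.3 against 14.9 to 19.1 CPM. In 18-month female BM-35, Hdc peak 1 was 22.6 against 18.9 to 19.8 CPM. Both sets of the Il5ra gene sum held a low library, 18-month male BM-39 at 15.2 against 21.1 to 22.5 CPM and 3-month female BM-244 at 11.3 against 16.1 to 18.6 CPM. High values among the 18-month libraries were Ms4a2 peak 1 in male BM-39 (8.21 against 6.52 to 6.75 CPM), Ms4a2 peak 3 in male BM-40 (8.48 against 3.86 to 5.28 CPM), Prg2 peak 1 in male BM-40 (6.65 against 3.21 to 4.39 CPM) and Fcer1a peak 2 in male BM-38 (6.85 against 3.14 to 4.30 CPM).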

How the results depend on the processing

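No paired analysis was possible because the groups share no replicate numbers, and no run held both ages; for sex at 3 months, where runs 29 and 31 each held a female and a male, no fit with run as a block was made. The Hdc gene sum kept its direction and its call in all 21 other fits. The number of the 8 genes higher at 18 months, 2 with all libraries, was 1 with offsets smoothed on abundance or width, 1 without the filter, and 1 to 2 when 1 library was left out, Il5ra being the gene lost. Of all tested genes, 17.7%, 17.8% and 18.2% were higher in those 3 settings, and 15.5% to 20.1% when 1 library was left out. In females the number was likewise 1 with both smoothed offsets (13% and 13.2% of all tested genes higher). It was 1 to 2 in females when 1 library was left out (7.8% to 14.9% of all). In males the number was 2 without the filter, with Cpa3 added (10.6% of all tested genes higher). It was 1 to 3 in males when 1 library was left out (5.89% to 12.4% of all). Epx and Ms4a2 were added there without 3-month male BM-252, and Cpa3 without 3-month female BM-244. Of the 24 peaks, 1 was lower at 18 months with width offsets (Prg2 peak 2, -0.48, edgeR adjusted p = 0.0440), where 9.45% of all tested peaks were. Hdc peak 5 passed with total counts as the scale (0.46, edgeR adjusted p = 0.0208) and without 3-month male BM-253 (0.49, 0.00860). In males 1 peak was higher with total counts (6.11% of all tested peaks) and 1 with abundance offsets (3.24%). Lower in males were 1 peak with abundance offsets (4.67% of all tested peaks) and 1 with width offsets (4.83%). When 1 library was left out, 0 to 4 were higher in males, where 1.48% to 4.73% of all tested peaks were. Higher peaks in females numbered 3 to 6 when 1 library was left out, where 2.29% to 7.53% of all tested peaks were higher. Interaction calls among the 24 peaks numbered 0 to 1 in these fits, where 0% to 2.15% of all tested peaks were called. The cause was not tested for any of these.

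For the age effect over both sexes, in 28 cases a log2 fold change that was not called changed sign, and it was not called there either. Sign changes within a sex or of the interaction are not counted in these. With total counts the values were 0.0067 for Fcer1a peak 1, 0.025 for Prg2 peak 1 and 0.0022 for Il5ra peak 2. With abundance offsets they were -0.026 for Epx peak 1 and -0.0095 for Ms4a2 peak 3, and with width offsets -0.037 for Epx peak 1, -0.037 for Ms4a2 peak 3 and -0.011 for Il5ra peak 4. The Fcer1a gene sum was 0.0083 with the 3 kb window and 0.0047 with strict nearest-gene assignment, where Prg2 was 0.021. Leaving out 1 library gave ranges of -0.086 to 0.18 for Epx peak 1, -0.0011 to 0.30 for Epx peak 2, -0.13 to 0.13 for Ms4a2 peak 3, -0.017 to 0.11 for Ms4a2 peak 1, -0.18 to 0.038 for Prg2 peak 1, -0.0078 to 0.27 for Prg2 peak 3, -0.21 to 0.051 for Fcer1a peak 1, -0.21 to 0.037 for Il5ra peak 2, -0.065 to 0.18 for Il5ra peak 4 and -0.19 to 0.030 for the Fcer1a gene sum. Over all tested peaks, scaling by total counts gave 11196 higher and 6629 lower, against 7089 and 8689 with TMM.

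For the genes other than Hdc, intervals of the age effect at gene level reached from -0.42 to 1.01. The parts of low counts and of the spread between libraries in these intervals were not tested.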
